A study of Mus musculus with 6 samples.

Results

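The Dusp, Sprouty and Spred genes described here encode brakes on MAP kinase signalling. They are the dual-specificity phosphatase genes Dusp1, Dusp2, Dusp4, Dusp5, Dusp6, Dusp7 and Dusp10 and the Ras pathway inhibitors Spry1, Spry2 and Spred1. They were chosen by name. All 10 were found among the 22609 genes of the authors' deposited table and among the 16241 that the authors tested. RNA was sequenced from early T cell progenitors, the most immature thymocytes, of fetal thymus from the C57BL/6 strain. The double-knockout (dKO) group had 3 libraries from E2Afl/flHEBfl/flIL7RCre mice, in which the floxed genes of the E proteins E2A (Tcf3) and HEB (Tcf12) are removed by Cre driven from the Il7r gene. The control group had 3 libraries from wild-type mice. Both groups were sorted as lineage-negative, CD4-negative, CD8-negative, CD44-positive, CD25-negative and c-Kit-positive cells, and the dKO cells additionally as YFP-positive cells, so genotype and gate cannot be told apart. Such a Cre acts in cells that express Il7r or descend from cells that did. The labels give no fetal day, and whether the libraries are separate animals or pools is not stated. The p-values therefore rest on variation from library to library that may be technical.

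MAP kinase cascades carry signals from surface receptors through 3 tiers of kinases to ERK, JNK and p38, which phosphorylate transcription factors. Dual-specificity phosphatases of the Dusp family remove the activating phosphates from the threonine and tyrosine of these kinases. Many of them, and the Sprouty and Spred genes, are themselves induced by ERK, so that their transcripts are widely read as negative feedback. In developing T cells the pathway lies downstream of c-Kit, cytokine receptors and, later, the pre-T cell receptor. A transcript level is not a measure of kinase activity, and kinase phosphorylation was not analysed here.

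The authors' deposited table holds, for each gene, the mean normalised count of dKO and of control. The depth, estimated from the summed means and the size factors, was 24.3 to 27.0 M reads per dKO library and 18.2 to 22.6 M reads per control library. For genes of low abundance the whole reads of each library could be recovered from the group mean. A library is called by its size factor, the depth scale by which its reads were divided: 1.16, 1.08 and 1.04 for dKO and 1.02, 0.952 and 0.823 for control. The targeted genes were lower in dKO, with authors' means for Tcf3 of 364 in dKO and 8931 in control and for Tcf12 of 562 in dKO and 3845 in control in the authors' deposited table. The progenitor genes Kit and Cd44 had authors' means of 19067 and 2765 in dKO and 14094 and 3220 in control. Both groups thus carried the transcripts of these sort markers. Other early T progenitor genes moved in both directions and are given with the markers below. The excluded markers Cd4 and Cd8a were low, at 34.8 and 27.2 in dKO and 104 and 9.51 in control, whereas Il2ra, which encodes the excluded CD25, was abundant at 8536 in dKO and 8417 in control.

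At the authors' adjusted p under 0.05, Spry2 was called higher in dKO and Dusp6 and Dusp1 lower, which makes 1 and 2 of the 10 feedback genes. Over all tested genes 29.0% were called, 15.1% higher and 13.8% lower, and over genes with a mean of at least 10, as all 10 have, 18.9% and 17.2%. The counts of 1 and 2 among 10 are near those shares. At an adjusted p under 0.01 the feedback genes again held 1 higher and 2 lower, against 11.7% and 10.2% of all tested genes. With the adjustment redone over genes whose mean was 10 or more, the counts were again 1 and 2, against 19.7% and 18.1%. With a change of at least 2-fold also required they were 1 and 0, against 6.86% and 5.70%. The median log2 change (dKO over control) of the 10 genes was 0.14, and that of all tested genes was -0.01. The log2 changes ran from -0.54 for Dusp1 to 2.12 for Dusp4, with 6 above 0 and 4 below, and 7 of the 10 did not pass.

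**Figure D1:**
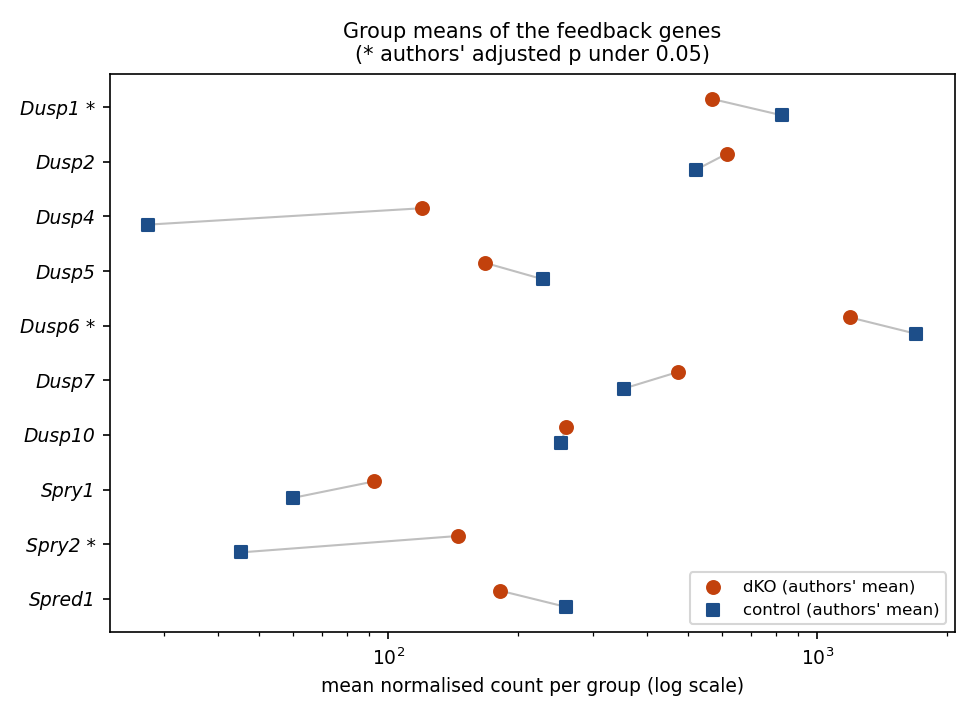
Authors' mean normalised count (log axis) of each feedback gene in dKO (circles) and control (squares), 1 mean of 3 libraries per group, with no error available for most genes; an asterisk marks the genes called at the authors' adjusted p under 0.05. The widest gaps are those of Dusp4 (120 in dKO, 27.6 in control, not called) and Spry2 (145 in dKO, 45.3 in control), and the called falls of Dusp6 and Dusp1 are narrower.

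Spry2 encodes an inhibitor that is recruited to receptor tyrosine kinase complexes and dampens Ras activation. Its normalised counts were 134, 179 and 122 in the dKO libraries of size factor 1.16, 1.08 and 1.04, and 68.3, 42.0 and 25.5 in the control libraries of size factor 1.02, 0.952 and 0.823. Every dKO library lay above every control library. The mean was 145 ± 30.2 in dKO and 45.3 ± 21.6 in control (SD, n = 3 each), 3.21-fold higher in dKO with an authors' adjusted p of 8.49e-04 in the authors' deposited table.

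Dusp6 encodes the cytoplasmic phosphatase that acts on ERK with high selectivity. It was the most abundant of the 10 genes in both groups, with authors' means of 1192 in dKO and 1700 in control. It fell to 70.1% of control, 1.43-fold lower, with an authors' adjusted p of 9.44e-04 in the authors' deposited table. Dusp1 encodes a nuclear phosphatase of p38, JNK and ERK that is induced within minutes of stress or growth factor signals. It had authors' means of 568 in dKO and 827 in control and fell to 68.7% of control, 1.46-fold lower, with an authors' adjusted p of 0.00893 in the authors' deposited table. Both falls are under 2-fold, whereas the change of Spry2 is above it. Recovery of the reads of each library was not tried for Dusp6, whose means were above the range used. For Dusp1 the means allowed 2 sets of reads in dKO and 10 in control, and for Dusp2 2 and 5. Whether the groups overlap was therefore not determined.

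The sequences before the start sites of these 3 genes are shown because E2A and HEB bind E-boxes, hexamers of the form CANNTG, and the 3 genes are the feedback genes that passed the test in cells with both genes deleted. The windows hold the 250 bases before each start, from RefSeq on GRCm38.p6, 5′ to 3′ on the strand of the gene, with each CANNTG in capitals. They lie at chr14:105896820-105897069 on the minus strand for Spry2, chr10:99262981-99263230 on the plus strand for Dusp6 and chr17:26508473-26508722 on the minus strand for Dusp1.
Spry2: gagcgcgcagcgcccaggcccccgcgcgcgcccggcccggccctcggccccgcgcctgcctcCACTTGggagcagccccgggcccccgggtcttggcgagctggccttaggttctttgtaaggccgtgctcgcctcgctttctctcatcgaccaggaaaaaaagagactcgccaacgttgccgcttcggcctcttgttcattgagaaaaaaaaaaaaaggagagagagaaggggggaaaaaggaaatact
Dusp6: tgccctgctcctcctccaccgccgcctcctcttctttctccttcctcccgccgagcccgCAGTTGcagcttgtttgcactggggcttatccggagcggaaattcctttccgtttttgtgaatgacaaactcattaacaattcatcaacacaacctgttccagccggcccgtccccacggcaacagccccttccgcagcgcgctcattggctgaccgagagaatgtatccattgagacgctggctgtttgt
Dusp1: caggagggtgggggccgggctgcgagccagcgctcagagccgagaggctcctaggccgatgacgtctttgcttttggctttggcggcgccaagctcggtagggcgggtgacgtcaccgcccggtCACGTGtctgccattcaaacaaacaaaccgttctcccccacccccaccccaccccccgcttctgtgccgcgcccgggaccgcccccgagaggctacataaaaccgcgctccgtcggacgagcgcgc
Each window held 1 CANNTG, with its first base at position -188 in Spry2, -191 in Dusp6 and -126 in Dusp1, counted from the start. Among the 9 feedback genes with a promoter window, 6 held at least 1, and 66.2% of 32851 windows of the same length did, so the motif is common in both. None of the 9 held CAGCTG, which 13.0% of all windows held, and 1, Dusp7, held CACCTG or its reverse complement CAGGTG, which 17.2% of all windows held. Both forms are also counted under CANNTG. The cyclic AMP response element TGACGTCA was found in 1 of the 9, Dusp1, and in 1.55% of all windows, and the AP-1 form TGANTCA was found in 0 of the 9 and in 6.75% of all windows. CACCTG was searched in both forms, and the other motifs read the same on both strands. A match of letters is a description of the window, and no binding was measured in these data. Dusp4 was not matched in the promoter table.

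The inducible nuclear phosphatases Dusp4, Dusp2 and Dusp5 did not pass. Dusp4, which acts on ERK and JNK, had normalised counts of 201, 40 and 119 in the dKO libraries of size factor 1.16, 1.08 and 1.04 and 36.1, 4.20 and 42.5 in the control libraries of size factor 1.02, 0.952 and 0.823. The groups overlapped, since the lowest dKO library lay below the highest control library. The mean was 120 ± 80.4 in dKO and 27.6 ± 20.5 in control (SD, n = 3 each), a ratio of 4.35, larger than that of Spry2, and the authors' adjusted p was 0.0983 in the authors' deposited table. The lowest control value rests on 4 reads. Dusp2, a phosphatase of activated lymphocytes also known as PAC-1, had authors' means of 616 in dKO and 520 in control (authors' adjusted p = 0.549 in the authors' deposited table). Dusp5, an ERK-selective nuclear phosphatase, had normalised counts of 192, 212 and 100 in the dKO libraries, with a mean of 168 ± 59.7 (SD, n = 3), and an authors' mean of 229 in control. The authors' adjusted p of Dusp5 was 0.297 in the authors' deposited table.

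The other phosphatases did not pass either. Dusp7, a cytoplasmic ERK phosphatase related to Dusp6, had normalised counts of 519, 485 and 410 in the dKO libraries, a mean of 472 ± 55.6 (SD, n = 3), against an authors' mean of 354 in control. The authors' adjusted p of Dusp7 was 0.128 in the authors' deposited table. Its mean was higher in dKO, whereas that of Dusp6 was lower. Dusp10, which acts on p38 and JNK, had normalised counts of 269, 194 and 312 in the dKO libraries, a mean of 259 ± 59.6 (SD, n = 3), against an authors' mean of 253 in control. The authors' adjusted p of Dusp10 was 1 in the authors' deposited table. The log2 change of Dusp10 was 0.03, and its sign turned with the scaling.

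Neither of the other Ras inhibitors passed. Spry1, the paralogue of Spry2, had normalised counts of 63.2, 79.1 and 136 in the dKO libraries of size factor 1.16, 1.08 and 1.04 and 60.5, 18.9 and 101 in the control libraries of size factor 1.02, 0.952 and 0.823. Its groups overlapped, and the means were 92.7 ± 38.2 in dKO and 60.1 ± 41.0 in control (SD, n = 3 each), with an authors' adjusted p of 0.535 in the authors' deposited table. Spred1, which brings the Ras GTPase-activating protein neurofibromin to the membrane, had normalised counts of 258, 113 and 174 in the dKO libraries, a mean of 182 ± 72.5 (SD, n = 3), against an authors' mean of 260 in control. The authors' adjusted p of Spred1 was 0.219 in the authors' deposited table. Reads were recovered in both groups for 3 of the 10 genes, and in 1 of these, Spry2, every dKO library lay above every control library. Of all genes with a mean of at least 10 and reads recovered in both groups, 18.0% showed that pattern, and 19.8% had every dKO library below every control library.

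**Figure D2:**
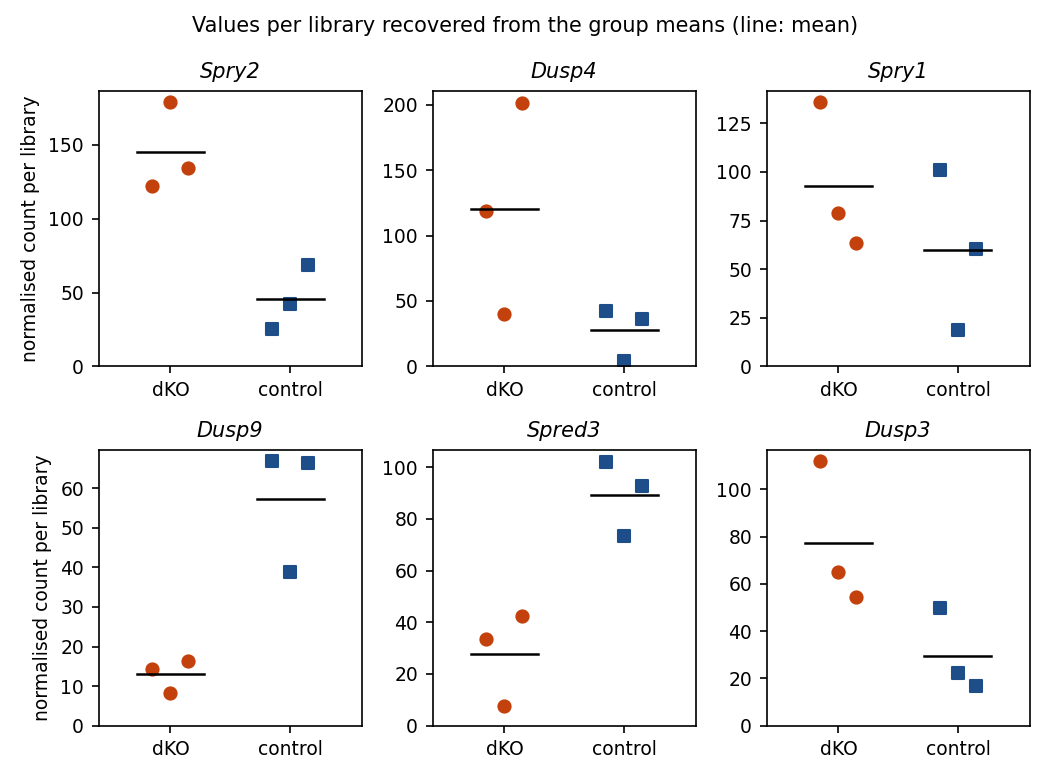
Normalised count per library, recovered from the group means, in dKO (circles, left) and control (squares, right), 3 libraries per group; the line is the authors' group mean and each axis starts at 0. The dKO libraries of Spry2 and Dusp3 all lie above the control libraries and those of Dusp9 and Spred3 all lie below, whereas the groups overlap for Dusp4 and Spry1.

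Set against transcript length, Dusp6 led in both groups, with 426 normalised counts per kilobase in dKO and 608 in control. Dusp2 (381 per kilobase in dKO, 322 in control) and Dusp1 (286 in dKO, 416 in control) followed, with their order exchanged between the groups. Dusp7 ranked next in both groups at 147 per kilobase in dKO and 110 in control. Dusp10 had 92.6 per kilobase in dKO and 90.5 in control, and Dusp5 68.0 in dKO and 92.7 in control. Spred1 was the lowest in dKO, at 30.2 per kilobase in dKO and 43.3 in control. Dusp4 was the lowest in control, at 43.8 per kilobase in dKO and 10.1 in control. Spry2 had 69.6 per kilobase in dKO and 21.7 in control, and Spry1 33.4 in dKO and 21.7 in control. Lengths were those of the longest transcript marked principal in GENCODE vM21, and the spread between libraries is known for 7 of the 10 genes in dKO and 3 in control, so the order was not tested. In that annotation Dusp1, Dusp5, Dusp10 and Spry1 overlap a gene on the opposite strand, and whether the counting used strand is not given in the sources used here.

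Other phosphatases of MAP kinases and other Dusp, Spry and Spred genes included larger falls than those of Dusp6 and Dusp1. Over all 28 tested Dusp, Spry and Spred genes, the 10 among them, 3 were higher, 5 were lower and 20 did not pass. The median log2 change was 0.04, or -0.01 when means under the floor of 3 reads over the group were set to that floor. Of 9 tested MAP kinase phosphatases outside the 10 genes, 1 was higher, 2 were lower and 6 did not pass, the median log2 change being 0.37. Dusp16, a JNK and p38 phosphatase, fell to 70.3 in dKO, against 204 in control, 2.90-fold lower (authors' adjusted p = 9.99e-05 in the authors' deposited table). Dusp9, an ERK phosphatase, had normalised counts of 16.4, 8.37 and 14.4 in the dKO libraries and 66.4, 38.9 and 66.8 in the control libraries, 4.38-fold lower in dKO (authors' adjusted p = 0.0130 in the authors' deposited table). Ppp2ca, the catalytic subunit of protein phosphatase 2A, was 1.29-fold higher, at 2706 in dKO and 2093 in control, in the authors' deposited table. Ptpn7, a tyrosine phosphatase of ERK and p38 in blood cells, was the most abundant of this list and did not pass, at 8204 in dKO and 6786 in control.

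Of 17 tested dual-specificity phosphatases that are not classical MAP kinase phosphatases, 4 were higher, 0 were lower by the authors' DESeq test and 13 did not pass. The median was 0.23, or 0.17 with means under the floor set to it. The number lower was also 0 of 17 at an unadjusted p under 0.05. Dusp11, an RNA phosphatase, was 1.51-fold higher at 3947 in dKO and 2611 in control (authors' adjusted p = 1.01e-06 in the authors' deposited table). The cofilin phosphatase genes Ssh2 and Ssh1 were 1.6-fold and 1.69-fold higher in dKO in the authors' deposited table. Dusp3 had normalised counts of 54.5, 65.1 and 112 in the dKO libraries and 16.6, 22.1 and 49.8 in the control libraries, 2.62-fold higher in dKO with an authors' adjusted p of 0.0458 in the authors' deposited table. With the 0.823 control library left out Dusp3 was 3.99-fold higher.

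Of 17 tested Sprouty, Spred and Ras-restraining genes outside the 10, 5 were higher, 3 were lower and 9 did not pass, and the median was 0.04. Errfi1, an inhibitor of EGF receptor family kinases, was 3.38-fold higher at 414 in dKO and 122 in control (authors' adjusted p = 3.54e-10 in the authors' deposited table). The Ras GTPase-activating protein genes Rasa2, Rasa1 and Rasa3 were 1.83-fold, 1.76-fold and 1.38-fold higher in dKO, and the adaptor gene Dok2 1.44-fold, in the authors' deposited table. Rasal1, of the same activity, was 2.30-fold lower, and Dab2ip 2.21-fold lower, in the authors' deposited table. Spred3 had normalised counts of 42.4, 7.44 and 33.7 in the dKO libraries and 92.7, 73.5 and 102 in the control libraries, 3.21-fold lower in dKO (authors' adjusted p = 0.00992 in the authors' deposited table). Spry4 and Spred2 did not pass, with means of 51.2 in dKO and 49.7 in control for Spry4 and 184 in dKO and 259 in control for Spred2.

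**Figure D3:**
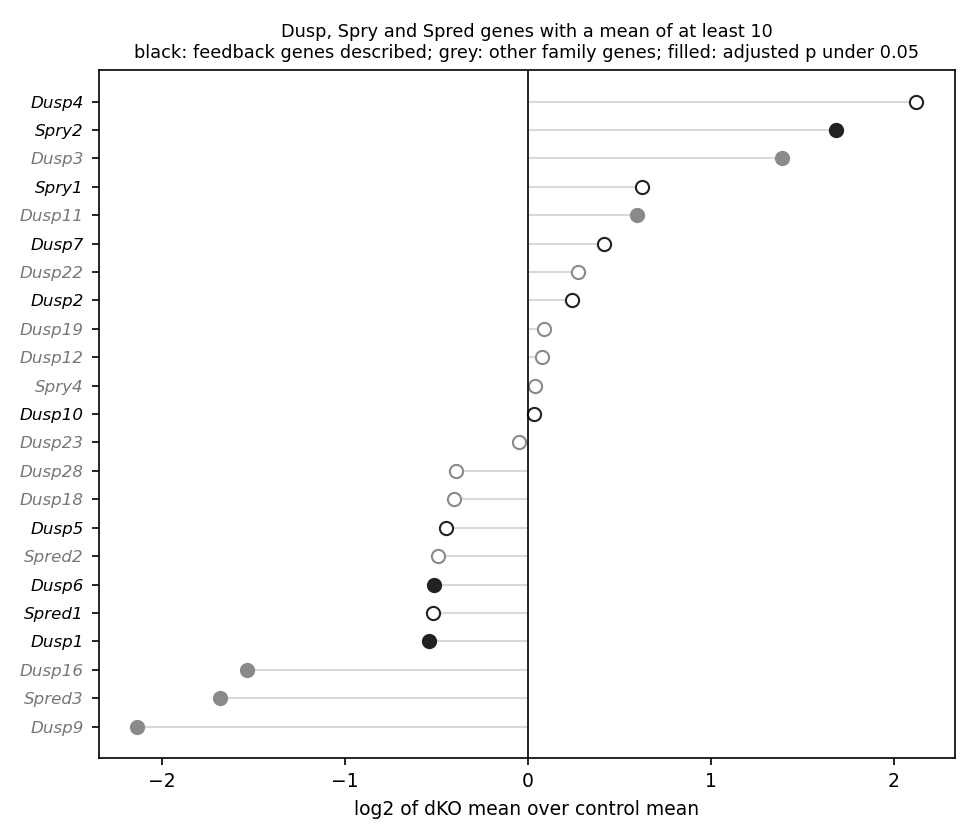
Log2 change (dKO mean over control mean) of every Dusp, Spry and Spred gene with a mean of at least 10 over both groups, in order of size; black marks the 10 feedback genes and grey the other family genes, and filled points passed the authors' adjusted p of 0.05. Dusp4 at 2.12 and Spry2 at 1.68 are highest and Dusp9 at -2.13 is lowest.

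The kinases of the cascades held more higher than lower calls. Of 32 genes from receptor adaptors to ERK, 9 were higher, 2 were lower and 21 did not pass, and the median log2 change was 0.24. Rasgrp1, a Ras exchange factor activated by diacylglycerol in lymphocytes, was 3.53-fold higher at 7256 in dKO and 2056 in control (authors' adjusted p = 1.45e-60 in the authors' deposited table). Map3k8, a kinase that activates the ERK pathway, was 5-fold higher at 858 in dKO and 171 in control (authors' adjusted p = 1.26e-20 in the authors' deposited table). The Ras-related GTPase gene Mras had normalised counts of 184, 246 and 153 in the dKO libraries and 9.76, 22.1 and 32.8 in the control libraries, 9.04-fold higher in dKO. Rras was 2.05-fold higher in dKO in the authors' deposited table. The adaptor genes Gab1 and Gab2 were 3.70-fold and 2.56-fold lower in the authors' deposited table. The Ras gene Nras did not pass, at 6653 in dKO and 5863 in control, nor did the adaptor gene Grb2, at 3692 in dKO and 3515 in control.

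Of 40 JNK and p38 cascade genes, 10 were higher, 2 were lower and 28 did not pass, and the median was 0.24. Gadd45g, an inducible activator of the p38 and JNK kinase MEKK4, was 17.2-fold higher at 1476 in dKO and 85.6 in control (authors' adjusted p = 5.52e-95 in the authors' deposited table). Map2k3, which phosphorylates p38, was 1.51-fold higher, and Tab2 and Map4k2 1.5-fold and 1.46-fold, in the authors' deposited table. Mapk13, a p38 isoform gene, was 3.24-fold lower at 26.2 in dKO and 84.7 in control, and Tab1 1.36-fold lower, in the authors' deposited table. The main p38 gene Mapk14 did not pass, at 3080 in dKO and 2923 in control. Of 11 kinases that MAP kinases phosphorylate, 5 were higher, 2 were lower and 4 did not pass, and the median was 0.10. Among these, Rps6ka4 and Rps6ka3 were 2.61-fold and 2.56-fold higher and Mapkapk3 2.08-fold higher, while Mapkapk2 was 1.86-fold lower and Mknk2 1.37-fold lower, in the authors' deposited table.

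Genes that ERK induces in many cell types, listed together with the factor genes Srf, Elk1, Elk3 and Elk4, moved in both directions. The Elk factors are proteins that ERK phosphorylates, so their genes are not read here as induced by ERK. Of the 22 listed genes, 6 were higher, 5 were lower, Elk1 and Elk3 among them, and 11 did not pass. The median was 0.72, or 0.29 when means under the floor of 3 reads over the group were set to that floor. Etv4, an Ets factor induced by receptor tyrosine kinase signals, had normalised counts of 95.2, 81.8 and 128 in the dKO libraries and 1.95, 9.45 and 14.6 in the control libraries, 11.7-fold higher in dKO (authors' adjusted p = 9.98e-08 in the authors' deposited table). With the 0.823 control library left out Etv4 was 17.8-fold higher, a log2 change of 4.16. The smallest log2 change of Etv4 with 1 library left out was 3.08, without the 1.02 control library. The early response factor gene Egr1 was 7.68-fold higher at 1228 in dKO and 160 in control (authors' adjusted p = 1.37e-06 in the authors' deposited table). Egr2 was 15.6-fold higher, with 517, 365 and 173 in the dKO libraries and 9.76, 17.9 and 40.1 in the control libraries. With the 0.823 control library left out Egr2 was 25.5-fold higher, a log2 change of 4.67. The smallest log2 change of Egr2 with 1 library left out was 3.58, without the 1.16 dKO library. The 46.8-fold change of Egr3 rests on 6 control reads, all in the library of size factor 0.952, and its dKO libraries had 185, 85.6 and 24.1. With that library left out the control mean was 0. With the 1.16 dKO library left out the fold was 26.1, and with the 1.02 or the 0.823 control library left out it was 31.2. The members that fell were led by Myc, 2.70-fold lower at 3451 in dKO and 9311 in control, and the cyclin gene Ccnd1, 4.40-fold lower at 72.5 in dKO and 319 in control, in the authors' deposited table. Elk3 and Ier3 were 1.91-fold and 1.95-fold lower in the authors' deposited table.

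Of 13 factors and genes downstream of JNK and p38, 5 were higher, 1 was lower and 7 did not pass, and the median was 0.60. Zfp36, which destabilises cytokine transcripts, was 3.68-fold higher at 2661 in dKO and 724 in control, and the cytokine gene Tnf 4.34-fold higher at 614 in dKO and 141 in control, in the authors' deposited table. The AP-1 genes Fosl2 and Junb were 3.61-fold and 1.76-fold higher, and Mef2c 3.18-fold lower, in the authors' deposited table. Jund had means of 1092 in dKO and 260 in control and did not pass (authors' adjusted p = 0.0895 in the authors' deposited table).

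**Figure D4:**
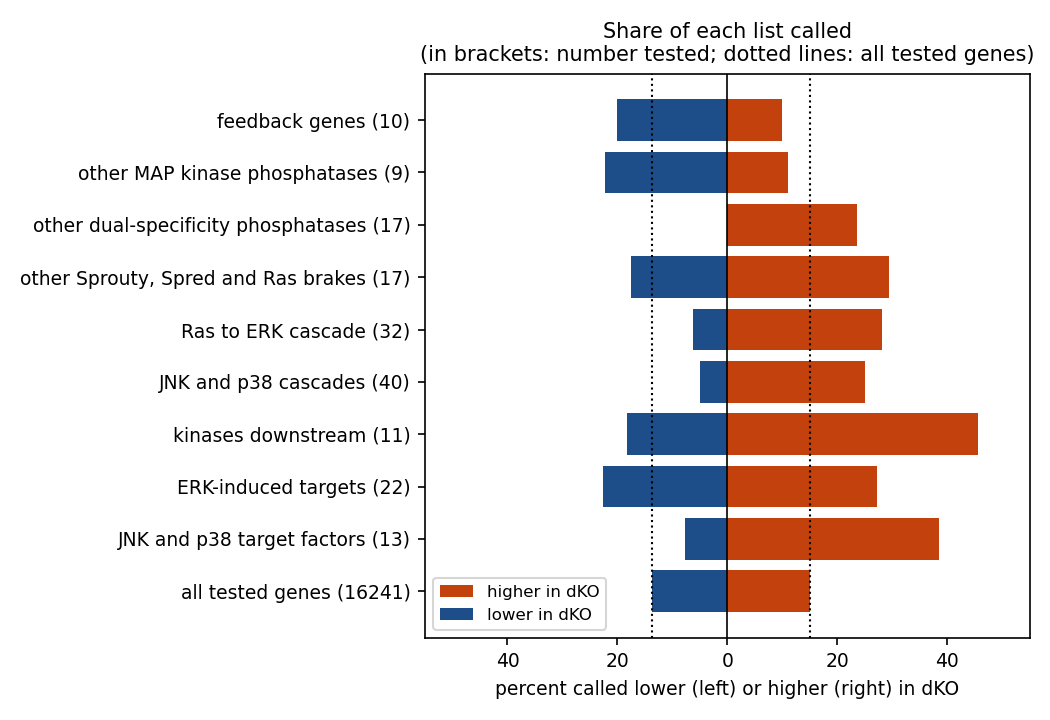
Percent of tested genes called higher (right of 0) or lower (left of 0) in dKO by the authors' test, for the feedback genes, 8 lists of the same pathway and all tested genes; brackets give the number tested and dotted lines the shares over all tested genes, 15.1% higher and 13.8% lower. The feedback genes have 10% higher and 20% lower, and the kinases downstream of MAP kinases have the longest bar to the right, 45.5%.

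Genes that dissociation and heat induce moved along with these groups, and their part in the results was not tested. Of 21 such genes, 10 were higher, 3 were lower and 8 did not pass, and the median was 0.81. They share 5 genes with the ERK targets and 4 with the JNK and p38 targets. Their summed means, 222091 in dKO and 220978 in control, are mostly Hspa8, Hsp90ab1 and Hsp90aa1. The stress-inducible Hsp70 genes Hspa1a and Hspa1b, near-identical copies whose reads the counting could split, were 6.89-fold and 8.17-fold higher in dKO in the authors' deposited table. Hspa1a had normalised counts of 47.6, 58.6 and 109 in the dKO libraries and 14.6, 10.5 and 6.07 in the control libraries. Hspa1b had 69.2, 145 and 223 in the dKO libraries and 34.2, 15.8 and 3.64 in the control libraries. With the 1.02 control library left out Hspa1b was 15-fold higher, a log2 change of 3.91. The smallest log2 change of Hspa1b with 1 library left out was 2.55, without the 0.823 control library. In both genes every dKO library lay above every control library. Zfp36, Btg2 (2.38-fold), Nfkbia (1.82-fold) and Junb were higher, and Ier3, Hsp90aa1 (1.32-fold) and Hsp90ab1 (1.24-fold) lower, in dKO in the authors' deposited table. Atf3, often induced by stress, was near 0 in both groups, at 3.91 in dKO and 3.01 in control.

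Genes of cell type marker lists, early T progenitors among them, also moved with the groups, and their part in the results was not tested. In bulk samples fewer cells of a type and less RNA per cell cannot be told apart. Of 11 genes of NK cells and innate lymphoid cells 10 were higher and 1 did not pass, and their summed means were 46521 in dKO and 13823 in control. Most of both sums is Gata3 (22961 in dKO, 7051 in control) and Id2 (12733 in dKO, 3583 in control). Both genes were abundant in the wild-type progenitors too, so these sums do not measure the content of NK cells or innate lymphoid cells. The NK cell receptor genes Ncr1 and Klrb1c were far less abundant, at 231 and 66.1 in dKO and 5.47 and 13.0 in control. Of 9 myeloid genes 2 were higher and 3 lower, with sums of 3079 in dKO and 9188 in control. Most of the gap is Mpo, a myeloid granule enzyme gene, at 1457 in dKO and 7310 in control. Lyz2 was also lower, at 60.5 in dKO and 301 in control, and the macrophage gene Emr1 was higher, at 278 in dKO and 53.3 in control. The neutrophil gene Elane was near 0, at 2.18 in dKO and 0 in control. Of 9 mast cell and basophil genes 4 were higher and 3 lower, with sums of 4568 in dKO and 7618 in control. The lower sum rests on Cpa3, a mast cell protease gene at 2147 in dKO and 5824 in control. The 4 higher genes were Gata2 (1037 in dKO, 523 in control), Mcpt8 (342 in dKO, 110 in control), Tpsb2 (217 in dKO, 19.1 in control) and Ms4a2 (110 in dKO, 31.1 in control). With the 0.823 control library left out the control means of Tpsb2 and Ms4a2 were 12.3 and 19.2. Of 5 erythroid genes 1 was lower, with sums of 149 in dKO and 1233 in control. It was the beta-globin row Beta-s, at 12.3 in dKO and 1032 in control, which makes up most of the control sum. The other globin rows Hba-a1, Hba-a2, Hbb-b1 and Hbb-b2 were listed at 0 in both groups. Of 6 dendritic cell genes 2 were higher and 2 lower (870 in dKO, 1449 in control), with Siglech and Clec9a listed at 0 in both groups. Of 6 B cell genes 2 were lower (1088 in dKO, 1279 in control), with Pax5 and Ms4a1 listed at 0 in both groups. Of 9 genes of thymic epithelium and stroma 1 was lower (2533 in dKO, 2933 in control), with Pdgfra and Cdh5 listed at 0 in both groups. Of 7 genes of later T cells 1 was higher and 3 were lower, and the sums, 9920 in dKO and 9918 in control, are mostly Il2ra. Cd2 was higher, at 1281 in dKO and 152 in control. Ptcra, which encodes the pre-T cell receptor alpha chain, was lower at 1.52 in dKO and 924 in control, as was Cd5 at 38.9 in dKO and 310 in control. Cd4 was also lower, and its dKO mean was 21.5 with the 1.16 dKO library left out. Of 9 early T progenitor genes 3 were higher and 3 lower (50014 in dKO, 51574 in control). Lower were Notch1 (1829 in dKO, 10176 in control), Cd34 (1770 in dKO, 4957 in control) and Flt3 (327 in dKO, 1080 in control). Higher were Ptprc (17415 in dKO, 12323 in control), Il7r (3959 in dKO, 3235 in control) and Kit.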

How the data were processed

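Total RNA of sorted cells was amplified from low input with a SMARTer kit and sequenced on an Illumina HiSeq, per the labels' protocols. Such reads are not independent molecules, so floors and recovered reads cover counting error only. Named in the submitters' processing notes are TopHat2 2.0.14, build mm9, bcl2fastq 1.8.4 and DESeq 2, and the table has the column names that DESeq writes. Which counter and annotation were used is not given in the sources used here. The signal columns are the authors' mean normalised count per group, per the file headers. The fold column is the authors' ratio of dKO over control as deposited, within 1.12e-07 of the ratio of the means. The p-value columns are the authors' as deposited, and redoing the Benjamini-Hochberg adjustment gave the deposited adjusted p-value within 4.08e-07. Of 22609 genes 6368 were at 0 in both groups and 16241 were tested. The deposited log2 column was not used; log2 changes here are log2 ratios of the means (Python 3.11.15, numpy 2.4.6, pandas 2.3.3).

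No new test was made: the table holds group means, so the authors' adjusted p under 0.05 was the call. Where a mean was low enough to try, whole reads per library were solved from it. Each mean, printed to 10 digits, is a sum of 3 reads weighted by size factor. Reads for dKO against control were also simulated, and their means were solved with the same fitted weights that made them. Unique solutions up to a mean of 600 were therefore right by construction, 100% in both groups. Error in the fitted weights was not simulated, so the simulation shows only how often a solution is unique. Solutions were unique for 100% of simulated dKO means from 100 to 200, and for 66.5% from 200 to 600, against 67.5% and 5.50% of control means in the same ranges. Of 6569 genes with both means up to 200, 95.6% had a unique solution in both. The floor, 3 reads over the group, is 0.963 in dKO and 1.21 in control. The 10 genes and all 19 other lists were chosen with earlier results of these data known, and lists share genes. Named genes were, besides the 10, up to 4 called genes per list and direction with the smallest adjusted p, all where a class held 5 or fewer, and 3 of the most abundant others. Some genes that the rule takes are left out of the text. Named outside this rule after their values were seen were Spry4, Spred2, Atf3, Hspa1a, Hspa1b, the targeted genes and genes of the marker lists. Promoters came from RefSeq (GRCm38.p6) and lengths from GENCODE vM21, which differ from the build of the counts.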

Additional observations from a re-analysis of the deposited data

How the results depend on the processing

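The count of feedback genes higher in dKO, 1, was also 1 at an adjusted p under 0.01 and with a change of at least 2-fold required. It was also 1 with the adjustment redone over 12896 genes with a mean of at least 10 and with both rescalings. The rescalings leave the authors' p-values as they are and shift all log2 changes alike by little. They could therefore not change the counts of calls, and their unchanged counts carry no information. The count lower, 2, was also 2 under the same alternatives except that with a change of at least 2-fold required it was 0. Of 30 log2 changes of the feedback genes under another scaling or a pseudocount of 1, 29 kept their direction, and Dusp10 turned to -0.05 with group means rescaled to the same total, by construction a shift of -0.08. The median log2 change of genes with a mean of at least 10 was 0.00. Leaving out each library in turn gave log2 changes of 1.40 to 2.11 for Spry2, 1.53 to 2.57 for Dusp4 and 0.20 to 1.22 for Spry1, all above 0, with no test. For 81 called genes of the pathway, dissociation and receptor lists with reads in both groups, 332 values under the same scalings, pseudocount and left-out libraries, chosen after seeing the data, held 0 reversals. The called genes of the cell type marker lists were not run. No paired analysis was possible because the table holds group means and recovered reads carry no replicate number. Depth limits the low genes, since the control mean of 27.6 for Dusp4 rests on 37, 4 and 35 reads.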

Other observations

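Receptors and proximal kinases that feed the Ras pathway also moved in both directions. Of 22 tested, 5 were higher, 7 were lower and 10 did not pass, and the median log2 change was 0.07, or -0.01 with means under the floor set to it. The T cell kinase genes Zap70 and Prkcq were 5.33-fold and 2.59-fold higher in dKO in the authors' deposited table, and Kit, the receptor used in the sort, 1.35-fold. Pdgfrb fell to 2152 in dKO, against 9430 in control, and Igf1r to 353 in dKO, against 1143 in control, in the authors' deposited table. Csf1r and Cd3e were 3.85-fold and 3.31-fold lower in the authors' deposited table. Lat, an adaptor of the T cell receptor, had means of 5042 in dKO and 5164 in control and did not pass.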
